A study of Homo sapiens with 22 samples.

Results

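The genes described here are the 8 that encode the main AP-1 transcription factors: JUN, JUNB and JUND of the JUN family, FOS, FOSB, FOSL1 and FOSL2 of the FOS family, and ATF3. They were chosen by name, and every CUT&Tag peak overlapping a window of 100 kb on either side of the gene's hg19 start site was assigned to its window, which gave 1158 of the 508791 peaks on chromosomes 1 to 22 and X in all lists. A peak inside a window is not assigned to the gene by function, because the windows hold 0 other protein-coding genes around FOS and 1 each around JUN, FOSL2 and ATF3, but 7 around JUND, 8 around FOSB, 13 around FOSL1 and 14 around JUNB in the RefSeq annotation of GRCh38.

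The libraries came from AN3CA, an established human endometrial carcinoma line known for the loss of ARID1A, the large DNA-binding subunit of canonical BAF, a SWI/SNF-type remodeller of chromatin. Cells carried wild-type ARID1A (WT), an ARID1A with a mutated ARID domain (DBDmut), the truncations delIDR1 and CBR, a hybrid of ARID1A with an intrinsically disordered region named DDX4 (DDX4), or an empty vector (Empty). SMARCA4, the ATPase of the complex, SMARCC1, one of its core subunits, and H3K27ac, an acetylation of active promoters and enhancers, were each profiled in 1 library per ARID1A form and in 2 Empty replicates, and HA was profiled in DDX4 cells, giving 22 libraries. Differences between single constructs therefore have no replicate check, and the labels do not say whether the Empty replicates were separate cultures. Levels of the introduced proteins are not measured by peak lists, so they cannot be told apart from the form of ARID1A.

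AP-1 is a family of dimers joined through leucine zippers. JUN proteins pair with each other or with FOS or ATF proteins, whereas FOS proteins need a JUN partner, and the dimers bind short palindromes at promoters and, far more often, at enhancers. FOS, FOSB, JUN, JUNB and ATF3 are classic immediate-early genes, which growth factors or stress switch on within minutes, and BAF is known to work with AP-1 factors at enhancers in other cells.

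Depth differed between the libraries. Fragments per kb of background, an estimate of depth derived from the lists, ran from 0.913 in DBDmut to 1.94 in Empty replicate 2 for SMARCA4, from 1.32 in delIDR1 to 3.29 in WT for SMARCC1, and from 3.59 in delIDR1 to 14.5 in Empty replicate 2 for H3K27ac. List length did not follow this estimate for SMARCA4: DBDmut, the lowest, had the longest list (15207 peaks), and Empty replicate 2, the highest, had 9409. Peak names of WT, DBDmut, delIDR1, CBR and Empty replicate 1 shared 1 stamp, while DDX4 and Empty replicate 2 each had another, and the labels do not say what the stamps mark. The absence of a peak means that none was listed at a q-value of 0.01 in that library, not that the protein or mark was absent.

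The promoters were searched, over the 250 bases before the start alone, for DNA words that AP-1 and the related CREB/ATF factors read. The 250 bases before the start site are given for 5 of the genes: JUN, JUND and FOSL2, whose start sites carried BAF subunits in ARID1A and Empty cells, FOS, which was acetylated in all of them but had BAF subunits in few, and ATF3, which had no peak within 1 kb of the start site used here. They are the RefSeq sequences of GRCh38.p14, 5′ to 3′ on the gene's strand, at chr1:58784048-58784297 (minus strand) for JUN, chr19:18281623-18281872 (minus strand) for JUND, chr14:75278578-75278827 (plus strand) for FOS, chr2:28392608-28392857 (plus strand) for FOSL2 and chr1:212565157-212565406 (plus strand) for the upstream start of ATF3. Capitals mark TGACG on either strand (CGTCA on the other strand) and the longer words TGACGTCA and TGACATCA.
JUN promoter: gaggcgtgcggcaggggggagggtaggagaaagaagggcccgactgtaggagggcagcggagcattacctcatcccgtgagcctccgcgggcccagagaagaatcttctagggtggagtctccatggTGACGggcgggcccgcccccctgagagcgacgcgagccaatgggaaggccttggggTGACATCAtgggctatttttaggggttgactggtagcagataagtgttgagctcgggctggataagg
JUND promoter: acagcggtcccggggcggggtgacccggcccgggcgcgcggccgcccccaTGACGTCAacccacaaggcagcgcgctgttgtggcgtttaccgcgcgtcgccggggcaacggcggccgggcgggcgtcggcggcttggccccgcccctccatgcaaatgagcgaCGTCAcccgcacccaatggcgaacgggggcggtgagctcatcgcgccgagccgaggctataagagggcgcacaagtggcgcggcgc
FOS promoter: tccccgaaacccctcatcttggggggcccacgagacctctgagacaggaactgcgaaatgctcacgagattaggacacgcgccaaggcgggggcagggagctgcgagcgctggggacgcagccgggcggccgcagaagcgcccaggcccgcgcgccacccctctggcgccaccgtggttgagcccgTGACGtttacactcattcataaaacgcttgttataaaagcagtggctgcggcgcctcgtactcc
FOSL2 promoter: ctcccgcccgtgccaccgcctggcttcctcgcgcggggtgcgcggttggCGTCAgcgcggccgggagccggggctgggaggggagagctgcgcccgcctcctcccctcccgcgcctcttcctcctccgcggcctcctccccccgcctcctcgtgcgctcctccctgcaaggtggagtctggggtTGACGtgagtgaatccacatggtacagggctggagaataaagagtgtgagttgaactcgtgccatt
ATF3 promoter: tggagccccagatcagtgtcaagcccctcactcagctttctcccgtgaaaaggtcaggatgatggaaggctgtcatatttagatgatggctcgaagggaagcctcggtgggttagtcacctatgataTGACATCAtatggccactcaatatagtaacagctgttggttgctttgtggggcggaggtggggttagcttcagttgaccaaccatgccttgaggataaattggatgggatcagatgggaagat

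The full cyclic AMP response element TGACGTCA was found in 1 of the 7 genes with a promoter in the table, JUND, where it begins 200 bases before the start, and it occurred in 1.65% of 35116 promoters of that length. TGACATCA, a variant of it, began 67 bases before the start of JUN and 123 bases before that of ATF3, and occurred in 2.37% of promoters. The shorter TGACG, which lies inside TGACGTCA, was present upstream of JUN, JUNB, JUND, FOS, FOSB and FOSL2 and in 21.2% of all promoters. The AP-1 site TGANTCA, found in 6.57% of promoters, and the CArG box, the core of the serum response element, found in 1.16%, were in none of the members' 250 bases. A site further upstream, at FOS or any other member, lies outside this search, so its absence from the promoter is not shown. Both strands were searched, TGACATCA and TGACG were added to the search after the sequences had been seen, and a match is a description of letters, not of binding. The positions were not converted to hg19, so sequence and peaks were not overlaid.

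Within 1 kb of the start sites, JUN, FOSL2 and JUND carried SMARCA4 in every background and JUNB, FOSB and ATF3 in none. FOS and FOSL1 carried it in some. A promoter peak here is one that overlaps 1 kb on either side of the start site. JUN, the most potent activator of the family, and FOSL2, which encodes FRA-2, had SMARCA4, SMARCC1 and H3K27ac promoter peaks in 7 of the 7 backgrounds (WT, 4 mutants and 2 Empty replicates). JUND, the JUN gene with the most even expression across cell types, had SMARCA4 and H3K27ac in 7 backgrounds and SMARCC1 in 5, without a peak in delIDR1 and CBR. FOS, the prototype immediate-early gene, had H3K27ac in 7 backgrounds, SMARCA4 in 2 (DDX4 and Empty replicate 2) and SMARCC1 in 2 (DBDmut and Empty replicate 2). DDX4 and Empty replicate 2 are also the backgrounds whose peak names had a stamp of their own, and the part of this was not tested.

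The fold enrichment of a peak is the authors' own value for that peak, the pileup of fragments at its summit over local background with 1 added to each, and it describes a peak within its own list. At the JUN promoter the SMARCA4 fold was 10.3 in WT, 14.2 in DBDmut, 12.7 in CBR, 10.7 in delIDR1 and 14.2 in DDX4, and 12.0 and 10.2 in Empty cells. The SMARCC1 fold there was 13.3 in WT, 14.7 in DBDmut, 10.8 in CBR, 9.92 in delIDR1 and 10.6 in DDX4, against 14.1 and 12.2 in the Empty replicates. Apart from the SMARCA4 fold of 10.2 in Empty replicate 2, just under that of WT, the Empty values lay inside the range of the ARID1A forms. Both subunits were thus listed at the JUN promoter with and without introduced ARID1A.

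At the FOSL2 promoter the SMARCA4 fold was 10.2 in WT, 15.8 in DBDmut, 10.8 in CBR, 12.4 in delIDR1 and 12.9 in DDX4, against 12.3 and 9.15 in Empty cells. The SMARCC1 fold was 11.0 in WT, 15.6 in DBDmut, 8.6 in CBR, 10.9 in delIDR1 and 13.4 in DDX4, against 16.1 and 10 in Empty cells. The highest and the lowest of the 7 SMARCC1 values thus belonged to Empty replicate 1 and CBR, with WT between them. The JUND promoter was lower than both in the SMARCA4 list of WT, with a fold of 7.49, and had folds of 9.25 in DBDmut, 6.86 in CBR, 9.69 in delIDR1 and 10.4 in DDX4, against 8.65 and 11.6 in the Empty replicates.

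FOSL1, which encodes FRA-1, a FOS protein often abundant in invasive epithelial cancers, had a SMARCA4 promoter peak in WT and DDX4, a SMARCC1 peak in WT, DBDmut, DDX4 and Empty replicate 1, and H3K27ac in every background except delIDR1. The WT peaks at FOSL1 were weak, with summit pileups of 8 fragments for SMARCA4 and 10 for SMARCC1, against 27 and 69 fragments at JUN in the same lists. FOSB, which also encodes a shortened and long-lived form of its protein, and JUNB, which often opposes JUN, had no SMARCA4 or SMARCC1 promoter peak in any background. H3K27ac was listed at the FOSB promoter in WT, DBDmut, DDX4 and Empty replicate 2, and at the JUNB promoter in WT, CBR and Empty replicate 2. ATF3, a stress-induced partner of JUN proteins, had none of the 3 targets within 1 kb of the start site used here, and it is known to be transcribed from a downstream promoter as well.

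**Figure D1:**
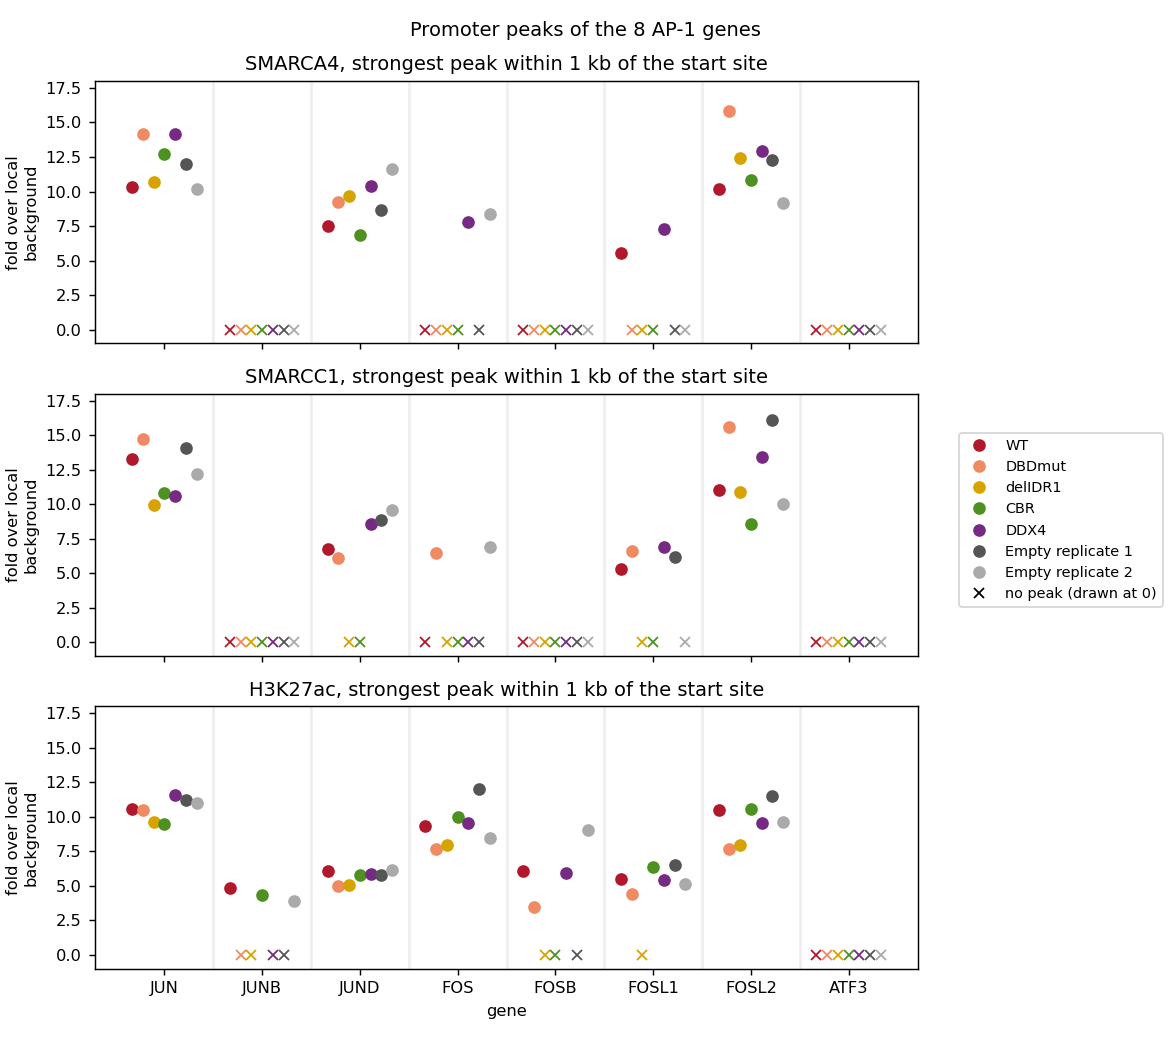
Fold over local background (vertical axis, the authors' value) of the strongest SMARCA4, SMARCC1 and H3K27ac peak within 1 kb of each start site, one point per library in the order WT, DBDmut, delIDR1, CBR, DDX4 and the 2 Empty replicates; crosses at 0 mark libraries without such a peak. JUN and FOSL2 have all 7 points in all 3 panels, and ATF3 has none.

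Acetylation of these promoters was likewise present with and without introduced ARID1A. At the JUN promoter the H3K27ac fold was 10.6 in WT, 10.5 in DBDmut, 9.49 in CBR, 9.65 in delIDR1 and 11.6 in DDX4, against 11.2 and 11.0 in the Empty replicates. At FOS it was 9.32 in WT, 7.7 in DBDmut, 10 in CBR, 7.98 in delIDR1 and 9.59 in DDX4, against 12.0 and 8.47 in the Empty replicates, and at FOSL2 it was 10.5 in WT, 7.65 in DBDmut, 10.6 in CBR, 7.95 in delIDR1 and 9.59 in DDX4, against 11.5 and 9.64 in the Empty replicates. Empty replicate 1 was the highest of the 7 at FOS and FOSL2, and the other Empty values lay within the range of the ARID1A forms.

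Counted over the whole windows, the number of peaks did not separate ARID1A cells from Empty cells. The 8 windows held 30 SMARCA4 peaks in WT, 41 in DBDmut, 32 in CBR, 19 in delIDR1 and 35 in DDX4, against 25 and 32 in the Empty replicates. They held 49 SMARCC1 peaks in WT, 44 in DBDmut, 33 in CBR, 18 in delIDR1 and 25 in DDX4, against 33 and 35 in the Empty replicates. They held 105 H3K27ac peaks in WT, 83 in DBDmut, 95 in CBR, 71 in delIDR1 and 75 in DDX4, against 92 and 165 in Empty cells. The groups overlapped for each antibody, and the 165 H3K27ac peaks of Empty replicate 2 came from the deepest library. delIDR1 had the fewest peaks of all 7 backgrounds for all 3 antibodies, but its H3K27ac list was also the shortest (31745 peaks). As a share of the list, delIDR1 was lowest for SMARCC1 alone (0.172%, against 0.205% in WT). Its shares for SMARCA4 (0.266%) and H3K27ac (0.224%) were above those of WT (0.232% and 0.206%).

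SMARCA4 averaged 31.4 ± 8.08 peaks in ARID1A cells (SD, n = 5 forms) and 28.5 ± 4.95 in Empty cells (SD, n = 2), a difference of 2.9 (two-sided p = 0.714, exact permutation test of the libraries). SMARCC1 averaged 33.8 ± 12.9 and 34.0 ± 1.41 peaks in the same groups (p = 1.0, exact permutation test), and H3K27ac 85.8 ± 14.1 and 128.5 ± 51.6 (p = 0.143, exact permutation test). Adjusted over the 3 antibodies by the Benjamini-Hochberg method these exact permutation p-values were 1.0, 1.0 and 0.429, and 0.0476 is the smallest that 5 libraries against 2 can give. A single antibody at that smallest value would not stay below 0.05 after the adjustment. The 5 forms are different constructs, so their SD is the spread between constructs. The tests do not compare WT alone with Empty. The differences for SMARCA4 and SMARCC1 changed sign under several other settings, and the sizes of the lists differed: the windows took 0.232% of the WT SMARCA4 list, 0.27% in DBDmut, 0.248% in CBR, 0.266% in delIDR1 and 0.398% in DDX4, against 0.449% and 0.34% in the Empty replicates.

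**Figure D2:**
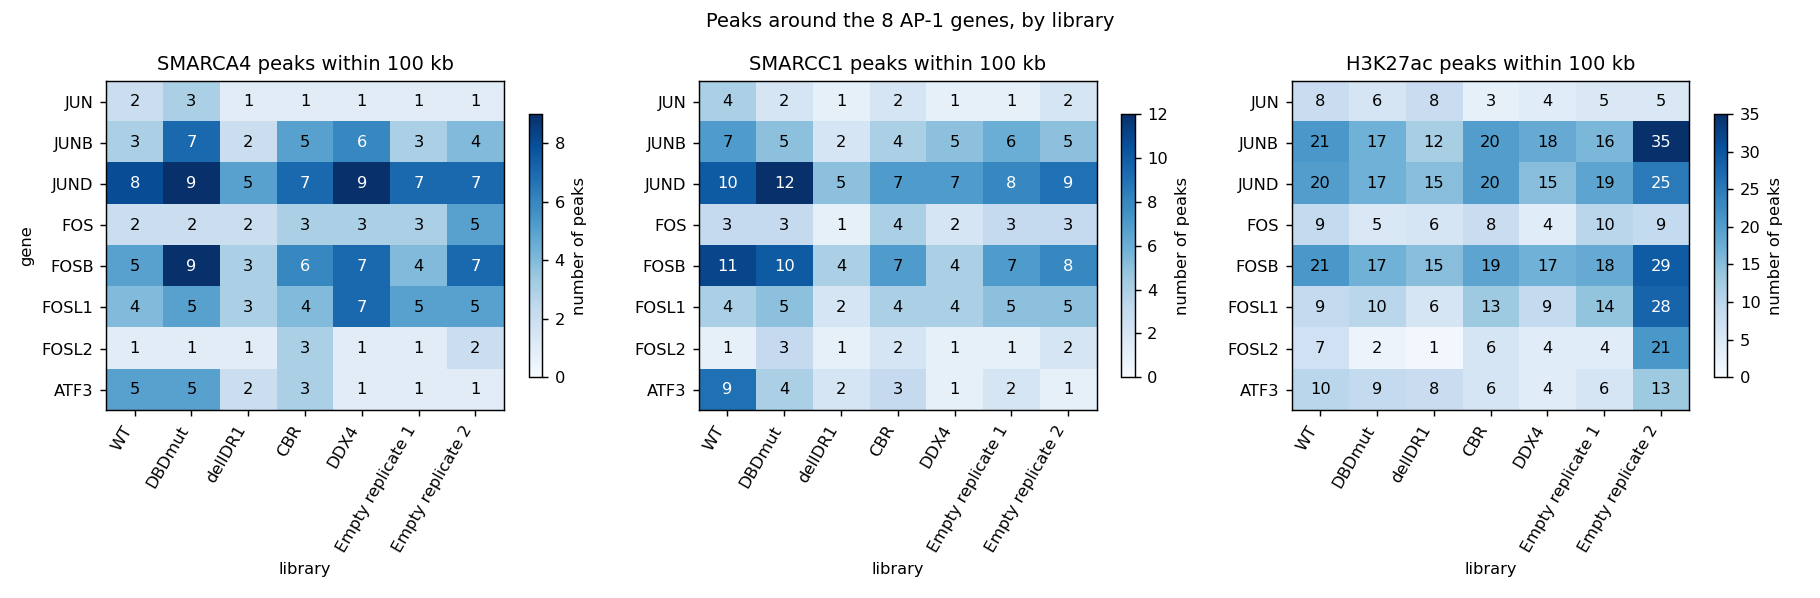
Number of SMARCA4, SMARCC1 and H3K27ac peaks (colour scale and printed number, each panel scaled to its own maximum) within 100 kb of each AP-1 start site, by library, with ARID1A forms left of the Empty replicates. ATF3 has 5 SMARCA4 and 9 SMARCC1 peaks in WT, against 1 and 1 to 2 in the Empty replicates. The subunit counts of JUND and JUNB vary less between WT and Empty, but JUNB has 21 H3K27ac peaks in WT, against 16 and 35 in the Empty replicates.

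The totals cover different counts at single genes. ATF3 had 5 SMARCA4 peaks in WT, 5 in DBDmut, 3 in CBR, 2 in delIDR1 and 1 in DDX4, against 1 in each Empty replicate. It had 9 SMARCC1 peaks in WT, 4 in DBDmut, 3 in CBR, 2 in delIDR1 and 1 in DDX4, against 2 and 1 in the Empty replicates. WT had the most peaks of both subunits, equalled by DBDmut for SMARCA4, and DDX4 was at the level of the Empty replicates. No test was made on 1 gene, since WT is 1 library.

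Without ATF3 the pattern was mixed. JUN had 2 SMARCA4 peaks in WT, 3 in DBDmut and 1 each in delIDR1, CBR and DDX4, against 1 in each Empty replicate, and 4 SMARCC1 peaks in WT, 2 in DBDmut, 2 in CBR, 1 in delIDR1 and 1 in DDX4, against 1 and 2 in the Empty replicates. FOSL1, in contrast, had 4 SMARCA4 peaks in WT and 5 in each Empty replicate, and 4 SMARCC1 peaks in WT and 5 in each Empty replicate. FOS had 2 SMARCA4 peaks in WT, against 3 and 5 in the Empty replicates. Its SMARCC1 peaks numbered 3 in WT and 3 in each Empty replicate. More SMARCC1 peaks were listed in WT at FOSB (11, against 7 and 8 in the Empty replicates), JUND (10, against 8 and 9) and JUNB (7, against 6 and 5). FOSL2 had 1 peak of each subunit in WT, the one at its promoter.

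Peaks of single subunits that Empty cells lacked were counted near the AP-1 genes and over the whole lists. The differences between these shares were not tested, and some were small, as for SMARCC1 in CBR and both subunits in DDX4. For SMARCA4, 8 of 30 WT peaks overlapped no SMARCA4 peak of either Empty replicate (63.7% over the list), and so did 16 of 41 in DBDmut (58.9%), 9 of 32 in CBR (57.8%), 6 of 19 in delIDR1 (44.4%) and 9 of 35 in DDX4 (32.2%). For SMARCC1 it was 21 of 49 in WT (57.2%), 15 of 44 in DBDmut (44%), 11 of 33 in CBR (34.3%), 1 of 18 in delIDR1 (31%) and 3 of 25 in DDX4 (18.3%). ATF3 supplied 4 of the 8 SMARCA4 peaks and 7 of the 21 SMARCC1 peaks of WT. In DBDmut it supplied 4 of the 16 and 3 of the 15, and in DDX4 none of either.

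The next question was where both subunits, not a single one, were listed. A BAF site was defined as a WT SMARCA4 peak that overlaps a WT SMARCC1 peak by at least 1 bp. The name is shorthand for this overlap. ARID1A itself was not profiled, apart from HA in DDX4 cells, so a BAF site does not show which SWI/SNF-type complex held the subunits. The windows held 27 BAF sites in WT: 7 around JUND, 4 each around FOSB, FOSL1 and ATF3, 3 around JUNB, 2 each around JUN and FOS, and 1 at FOSL2. A site without a SMARCA4 or SMARCC1 peak in either Empty replicate is called gained, one with both subunits in both Empty replicates constitutive, and the rest mixed. Near the AP-1 genes 6 sites (22.2%) were gained, with an exact binomial 95% interval of 8.62% to 42.3%, where 45% of all 9743 WT sites were. Another 15 (55.6%, interval 35.3% to 74.5%) were constitutive, where 26.5% of all WT sites were. These intervals cover counting error only. They treat the sites as independent, but neighbouring sites share a locus and all come from 1 WT library. The intervals are therefore no test against the shares of all WT sites, and those differences were not tested. The remaining 6 were mixed, a class that held 28.5% of all WT sites.

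Around ATF3, 3 of the 4 sites were gained (75.0%, interval 19.4% to 99.4%), and around the other 7 genes 3 of 23 were (13.0%, interval 2.78% to 33.6%), 1 each near JUN, JUND and FOSB. These intervals too treat neighbouring sites as independent, so they do not compare ATF3 with the other genes, and that difference was not tested. With lists shortened to the same length 1 gained site was left at ATF3 and 1 at JUND. JUNB, FOS, FOSL1 and FOSL2 had no gained site. The 4 sites within 1 kb of a start site, at JUN, JUND, FOSL2 and FOSL1, comprised 3 constitutive sites and 1 mixed one, so every gained site lay outside the promoter windows. These are counts with no test, and WT SMARCC1 had the highest depth of its antibody, 3.29 fragments per kb against 2.1 and 2.45 in the Empty replicates; the part of depth in the gained calls was not tested.

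**Figure D3:**
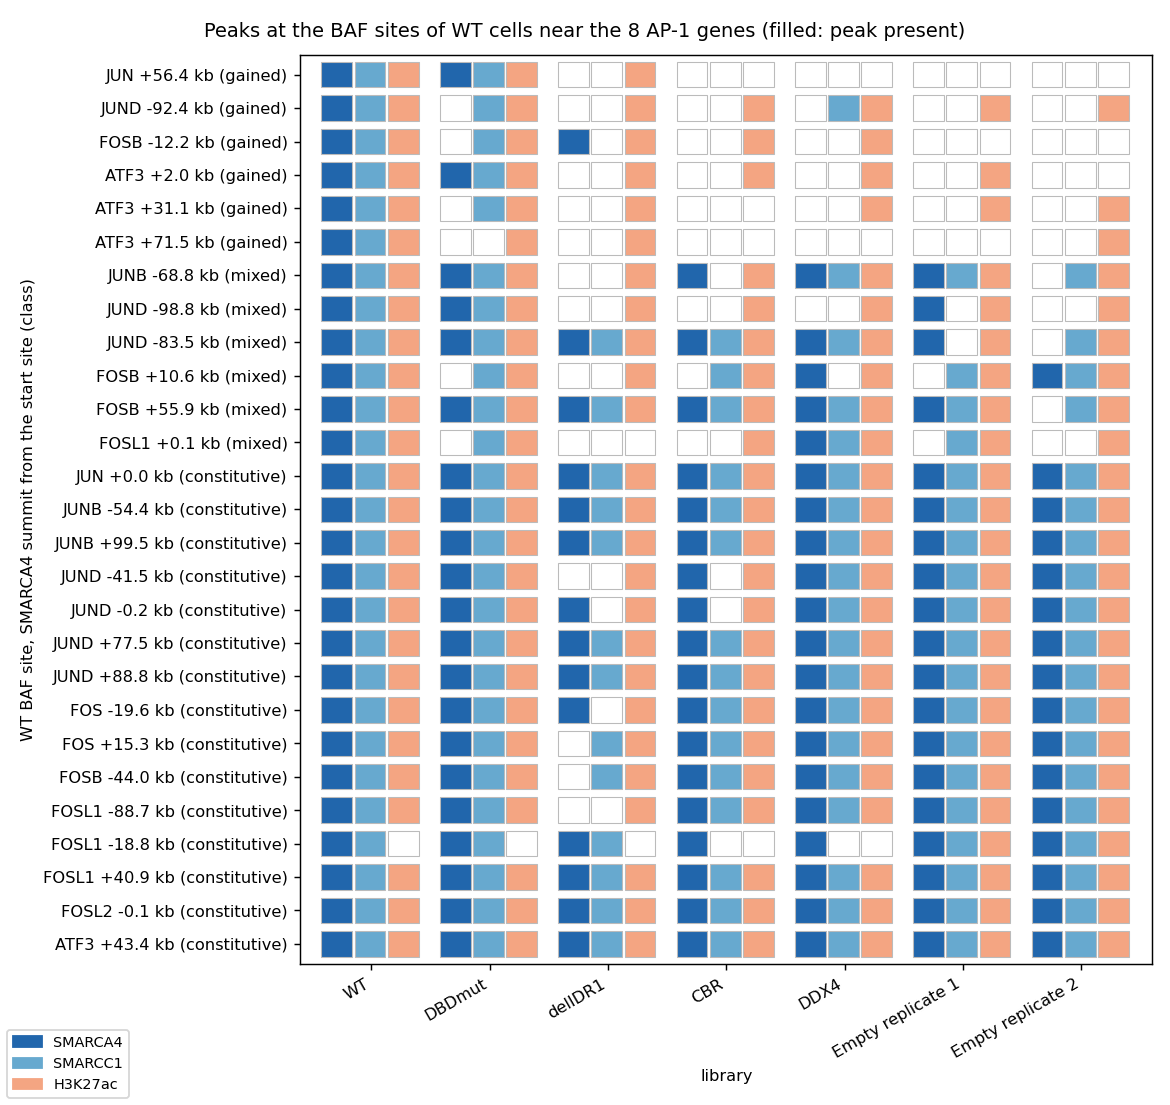
SMARCA4, SMARCC1 and H3K27ac peaks (filled boxes) at each of the 27 WT BAF sites near the AP-1 genes, by library, sorted into gained, mixed and constitutive sites; the label gives the distance in kb of the WT SMARCA4 summit from the start site, positive downstream. The 6 gained sites at the top are filled for both subunits in WT and for 2 of them in DBDmut, while 15 sites at the bottom are filled for both subunits in both Empty replicates.

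The gained site nearest to a start lay 1.99 kb downstream of the ATF3 start, at chr1:212740537-212740729 (hg19). SMARCA4 there had a fold of 9.99 and a summit pileup of 14 fragments in WT, and 7.99 with 10 fragments in DBDmut. SMARCC1 had a fold of 11.1 with 24 fragments in WT and 12.5 with 21 fragments in DBDmut. Neither subunit had a peak there in delIDR1, CBR, DDX4 or either Empty replicate. H3K27ac at this site had a fold of 14.3 with 74 fragments in WT, 10.4 with 58 in DBDmut, 6.85 with 12 in CBR, 12.2 with 44 in delIDR1 and 10.6 with 31 in DDX4, against 7.81 with 15 fragments in Empty replicate 1 and no peak over the WT SMARCA4 peak in Empty replicate 2. Empty replicate 2 did have an H3K27ac peak next to it, 1.175 to 1.600 kb downstream of the start, which overlaps the WT H3K27ac and SMARCC1 peaks of the site. Within its own list the H3K27ac peak ranked 1647 of 50885 by q-value in WT and 18721 of 36348 in Empty replicate 1, and lists of different length do not show a change by rank.

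The other gained sites of ATF3 lay 31.12 and 71.45 kb downstream of the start. At chr1:212769746-212769936 WT had 9 SMARCA4 and 19 SMARCC1 fragments at the summits, DBDmut had SMARCC1 alone with 10 fragments, and no other background had a subunit. H3K27ac was listed there in WT, DBDmut, delIDR1 and DDX4, and in both Empty replicates. At chr1:212810093-212810340 WT had 7 SMARCA4 and 9 SMARCC1 fragments, and no mutant had either subunit. H3K27ac was listed at that site in WT, DBDmut and delIDR1, and in Empty replicate 2 with a fold of 4.04 against 11.2 in the WT list. At both sites the H3K27ac peak of Empty replicate 2 overlapped only the edge of the WT SMARCA4 peak. It ran from 31.234 to 31.589 kb, against 31.070 to 31.260 kb, and from 71.649 to 71.946 kb, against 71.417 to 71.664 kb.

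The constitutive ATF3 site lay 43.35 kb downstream, at chr1:212781689-212782136, and had both subunits and H3K27ac in 7 of 7 backgrounds. SMARCA4 there had a fold of 6.9 in WT, 12.8 in DBDmut, 11.6 in CBR, 10.4 in delIDR1 and 13.0 in DDX4, against 12.9 and 8.32 in the Empty replicates. SMARCC1 had a fold of 9.88 in WT, 11.9 in DBDmut, 11.3 in CBR, 9.48 in delIDR1 and 9.8 in DDX4, against 11.6 and 12.1 in the Empty replicates. WT was the lowest of the 7 for SMARCA4 at this site, and for SMARCC1 it lay between delIDR1 and Empty replicate 2. Whether the site is the downstream ATF3 promoter was not tested, because no hg19 annotation was used here. The RefSeq sequences hold a second, downstream ATF3 start, with its 250 bases at chr1:212614768-212615017 in GRCh38.p14. That start was not placed in hg19 or set against the peaks.

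In all, 11 separate regions of the ATF3 window had a peak of either subunit in at least 1 background. Of these, 10 had one in WT, 6 in DBDmut, 4 in CBR, 3 in delIDR1 and 1 in DDX4, against 2 and 1 in the Empty replicates. H3K27ac was listed at 9 of the 11 in WT, 9 in DBDmut, 6 in CBR, 7 in delIDR1 and 4 in DDX4, against 4 and 7 in the Empty replicates. In the 4 mutants and both Empty replicates acetylation was therefore listed at more of the ATF3 regions than BAF subunits were, and in WT at fewer. The H3K27ac lists were also longer than the subunit lists in every background. Of the WT peaks, 4 of 5 for SMARCA4 and 7 of 9 for SMARCC1 had no peak of the same subunit in either Empty replicate. Over the whole WT lists these shares were 63.7% and 57.2%, and the difference at ATF3 was not tested. Regions that WT alone had also count among the 11, so the WT count of 10 is partly built in.

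**Figure D4:**
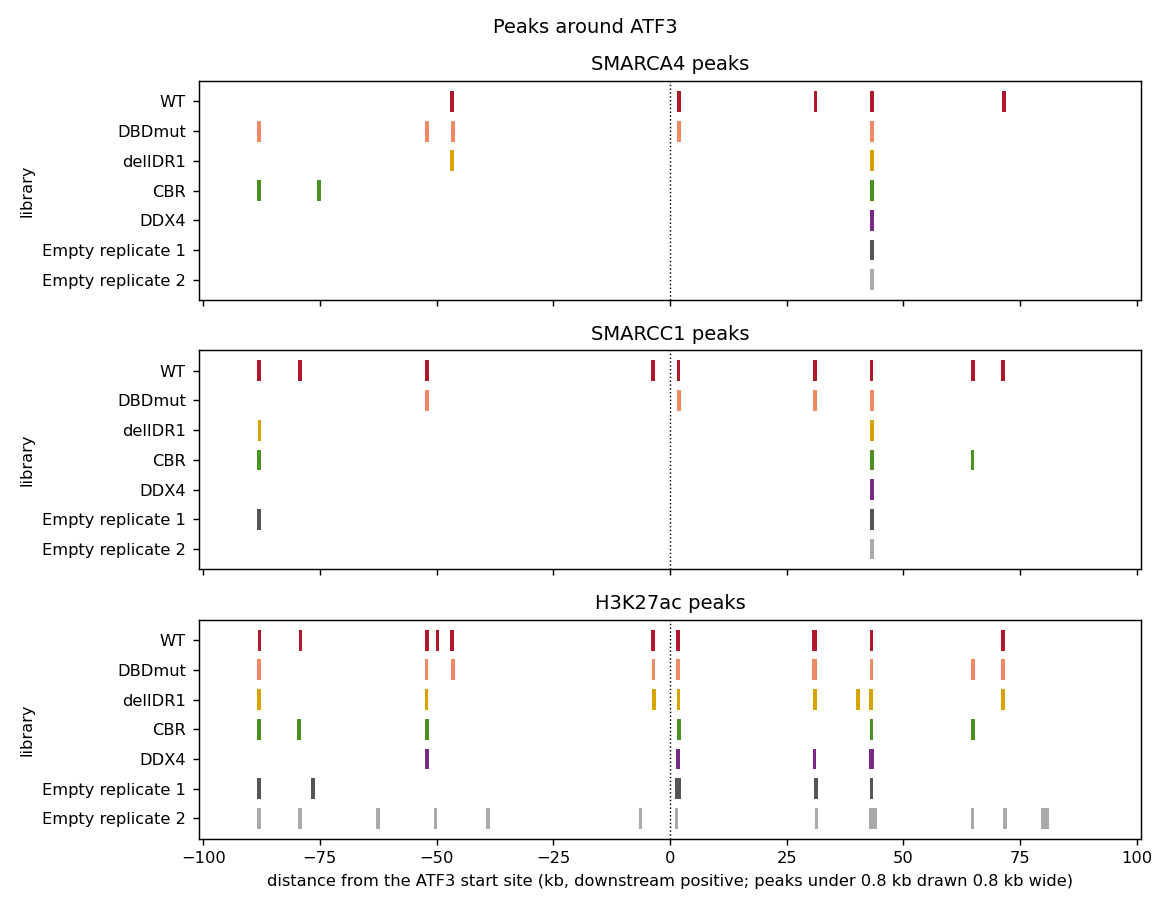
Positions of SMARCA4, SMARCC1 and H3K27ac peaks within 100 kb of the ATF3 start site (horizontal axis, kb, downstream positive, start site dotted), one row per library with ARID1A forms above the Empty replicates; peaks under 0.8 kb are drawn 0.8 kb wide. The site at 43.35 kb is present in every row, and the site at 1.99 kb has BAF subunits in the WT and DBDmut rows alone.

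JUN combined a constitutive promoter with a gained distal site. The distal site lay 56.43 kb downstream of the start at chr1:59193263-59193433, with 6 SMARCA4 and 14 SMARCC1 fragments at the WT summits and 5 and 8 in DBDmut. Neither subunit was listed there in delIDR1, CBR, DDX4 or the Empty replicates. H3K27ac was listed there with 14 fragments in WT, 14 in DBDmut and 9 in delIDR1, and in neither CBR, DDX4 nor the Empty replicates. The WT SMARCA4 peak had a −log10 q of 4.82 and ranked 9152 of 12949, so the JUN site was among the weaker peaks of its list and was lost at a −log10 q of at least 5.

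**Figure D5:**
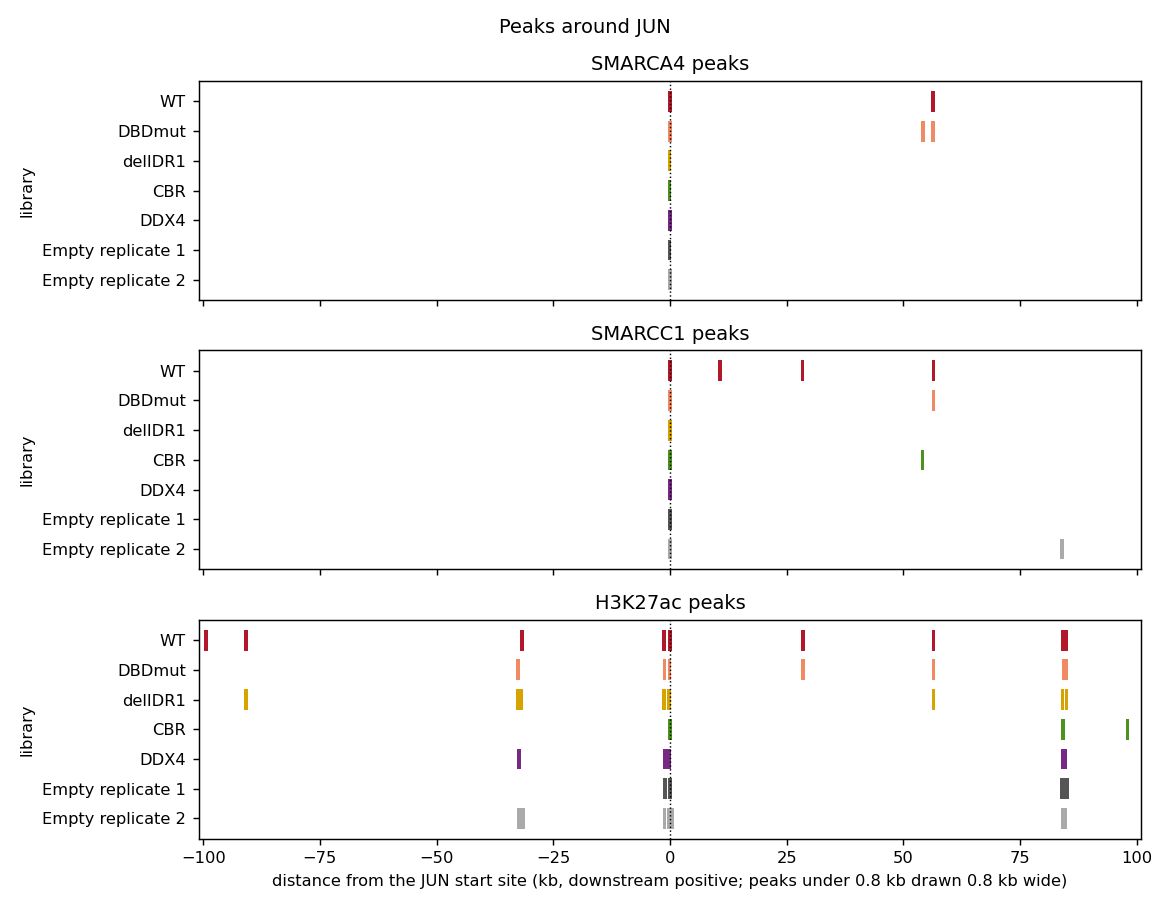
Positions of SMARCA4, SMARCC1 and H3K27ac peaks within 100 kb of the JUN start site (horizontal axis, kb, downstream positive, start site dotted), one row per library with ARID1A forms above the Empty replicates; peaks under 0.8 kb are drawn 0.8 kb wide. The promoter is filled in all rows, and the site at 56.43 kb is filled for both subunits in WT and DBDmut and for H3K27ac also in delIDR1.

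The gained sites of FOSB and JUND differed in their acetylation. The FOSB site lay 12.15 kb upstream of the start at chr19:45959058-45959207, with 10 SMARCA4 and 29 SMARCC1 fragments in WT, SMARCC1 alone in DBDmut (10 fragments) and SMARCA4 alone in delIDR1 (8 fragments). Its H3K27ac fold was 9.25 in WT, 7.73 in DBDmut, 5.71 in CBR, 11.9 in delIDR1 and 7.53 in DDX4, and neither Empty replicate had an overlapping peak. The mark was thus listed there with every form of ARID1A and in neither Empty library. The JUND site lay 92.37 kb upstream at chr19:18484753-18484918, with 13 SMARCA4 and 27 SMARCC1 fragments in WT; over this 166 bp peak DBDmut and DDX4 had SMARCC1 alone. The WT SMARCC1 peak reached further, and within the 746 bp of the whole region, chr19:18484678-18485423, DBDmut, CBR and DDX4 had both subunits, delIDR1 and the Empty replicates had neither, and DDX4 had an HA peak. BAF sites were listed there at chr19:18484994-18485374 in DBDmut and chr19:18485159-18485423 in CBR, each under the WT SMARCC1 peak but beside the WT SMARCA4 peak. The H3K27ac fold at the WT site was 9.81 in WT, 7.61 in DBDmut, 8.98 in CBR, 7.0 in delIDR1 and 7.78 in DDX4, against 9.16 and 7.12 in the Empty replicates, so BAF was listed at a site acetylated in every background.

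Among the mutants DBDmut kept the most of the WT sites. Both subunits overlapped 2 of the 6 gained sites in DBDmut, where 35.5% of all gained sites were kept. Read at the WT SMARCA4 peak, no gained site was kept in delIDR1, CBR or DDX4, against 14%, 5.5% and 0.479% of all gained sites, and with 6 sites counts this small cannot be set apart from those shares. This count leaves out the neighbouring JUND peaks described above, by which DBDmut, CBR and DDX4 had both subunits in the region of the JUND site. With either subunit counted at the WT SMARCA4 peak, 5 sites had a peak in DBDmut, 0 in CBR, 1 in delIDR1 and 1 in DDX4. H3K27ac was listed at 6 of the 6 in WT, DBDmut and delIDR1, 3 in CBR and 4 in DDX4, against 3 in each Empty replicate. In Empty replicate 2 the peaks counted at ATF3 overlapped the edge of the sites alone. Over all gained sites the same shares were 89.3% in WT, 72.4% in DBDmut, 26.6% in CBR, 65.5% in delIDR1 and 26.9% in DDX4, against 12.9% and 21.9% in Empty cells.

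The constitutive sites were kept by most mutants. Of 15, both subunits were listed at 15 in DBDmut, 12 in CBR, 9 in delIDR1 and 14 in DDX4, where the shares over all constitutive sites were 94.2%, 86.1%, 75.4% and 87.7%. delIDR1 had 1.03 and 1.32 fragments per kb in its SMARCA4 and SMARCC1 libraries, each among the lower values of its antibody, and the part of depth in its losses was not tested. H3K27ac was listed at 14 of the 15 in WT and in each mutant, where all constitutive sites had it in 96% in WT, 93.9% in DBDmut, 92.4% in CBR, 91.5% in delIDR1 and 96.1% in DDX4, and at 15 in each Empty replicate, where the shares were 95.4% and 97.2%. The exception lay 18.77 kb upstream of FOSL1 at chr11:65686636-65686802, where WT and all 4 mutants lacked an H3K27ac peak and both Empty replicates had one.

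Several of the strongest constitutive sites were distal. The site of smallest summed rank in the WT lists lay 54.4 kb upstream of JUNB at chr19:12847662-12848082, with 23 SMARCA4 and 86 SMARCC1 fragments, and the next JUNB site lay 99.52 kb downstream at chr19:13001601-13001886. JUND had such sites 88.78 kb downstream, at chr19:18303542-18303859, and 77.5 kb downstream, at chr19:18314826-18315229. Both subunits and H3K27ac were listed at these 4 sites in 7 of 7 backgrounds. The gene-dense surroundings of JUNB and JUND leave the target gene of each site unassigned.

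In delIDR1 both subunits were listed at 5 of the 7 constitutive sites of the JUN family and 3 of the 7 of the FOS family, a difference that was not tested. The JUND promoter kept SMARCA4 alone there, and the JUND site at chr19:18433923-18434068 had neither subunit. FOS had constitutive sites 15.29 kb downstream at chr14:75760731-75760855 and 19.6 kb upstream at chr14:75725713-75725993, which in delIDR1 kept SMARCC1 alone and SMARCA4 alone. The FOSB site 44.04 kb upstream at chr19:45927170-45927342 kept SMARCC1 alone in delIDR1, and the FOSL1 site 88.65 kb upstream at chr11:65756568-65756752 had neither subunit there. The FOSL1 site 40.91 kb downstream at chr11:65626968-65627125 had both subunits and H3K27ac in 7 backgrounds. Of the 8 windows, that of FOS alone held no other protein-coding gene of the RefSeq table in GRCh38.

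The 6 mixed sites lay near JUNB, JUND, FOSB and FOSL1. The strongest, 83.46 kb upstream of JUND at chr19:18475792-18476007, had both subunits in WT and all 4 mutants, SMARCA4 alone in Empty replicate 1 and SMARCC1 alone in Empty replicate 2. Its SMARCA4 pileup was 20 fragments in WT, 20 in DBDmut, 11 in CBR, 12 in delIDR1 and 31 in DDX4, against 18 in Empty replicate 1 and no listed peak in Empty replicate 2. Empty cells thus had a peak of each subunit there, but in separate replicates. FOSB had mixed sites 10.59 and 55.89 kb downstream, JUNB had one 68.75 kb upstream, and JUND had another 98.81 kb upstream, where WT and DBDmut had both subunits and Empty replicate 1 had SMARCA4 alone.

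Over all 14 subunit lists the windows held 90 separate regions with a peak. Both subunits were listed in all 7 backgrounds at 8 of them: 2 each at JUNB and JUND, and 1 each at JUN, FOSL1, FOSL2 and ATF3. At the other extreme 30 regions came from 1 list alone. WT had either subunit at 51 regions, DBDmut at 50, CBR at 42, delIDR1 at 25 and DDX4 at 37. Empty replicate 1 had either subunit at 37 regions and Empty replicate 2 at 45. SMARCA4 lists ran from 5567 peaks (Empty replicate 1) to 15207 (DBDmut), and SMARCC1 lists from 9685 (DDX4) to 23855 (WT). These region counts were not set against regions over the whole genome, and the part of list length in them was not tested.

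BAF sites of the mutants that neither Empty replicate had were counted near the AP-1 genes and over all sites, and the differences between these shares were not tested. DBDmut had 7 among its 32 sites near the AP-1 genes, delIDR1 0 of 12, CBR 3 of 21 and DDX4 1 of 22, where the shares over all sites of each mutant were 28.4%, 17.9%, 13.2% and 1.25%. A site 90.05 kb downstream of JUNB, at chr19:12992184-12992393 in DBDmut, had both subunits in DBDmut, CBR and DDX4, SMARCC1 alone in WT and neither in the Empty replicates; it was singled out after its values were seen. The sites that WT lacked as well were 1 in DBDmut, 90.91 kb upstream of FOSB at chr19:45880290-45880392, and 1 in CBR, 4.04 kb downstream of FOSL2 at chr2:28619733-28619882. Over all sites of these mutants 4.98% in DBDmut and 5.87% in CBR were of this kind, and near the AP-1 genes delIDR1 and DDX4 had 0, where their shares were 1.41% and 0.439%. The summit pileups were 6 and 8 fragments at the FOSB site and 15 and 22 fragments at the FOSL2 site for SMARCA4 and SMARCC1.

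A few BAF sites of Empty cells were missing in WT. Empty replicate 1 had 20 BAF sites near the AP-1 genes, 1 of which had neither subunit in WT (4.86% over its whole list), and Empty replicate 2 had 22, 5 of which did (16.2%). The FOSL1 site at chr11:65627798-65628079, 40.18 kb downstream of the start, was the one found in both: both subunits were listed in DBDmut and CBR and in both Empty replicates, SMARCA4 alone in DDX4, and neither in WT and delIDR1. H3K27ac was listed there in every background. The other sites of Empty replicate 2 that WT lacked included the FOS promoter.

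WT cells had H3K27ac peaks near the AP-1 genes that Empty cells lacked, though in a smaller share than over the genome. Of 105 WT peaks, 19 overlapped no H3K27ac peak of either Empty replicate, where 40% of all WT peaks did not. JUN and ATF3 had 4 each, FOSL2 3, JUND, FOS and FOSB 2 each, and JUNB and FOSL1 1 each. A WT SMARCA4 or SMARCC1 peak overlapped 7 of the 19 (33.2% over the genome), and 5 of those 7 were near JUN (2) and ATF3 (3), whereas none of the FOS, FOSL1, FOSL2 or JUNB peaks had one. Against Empty replicate 1 alone, of a depth like that of WT, 38 of 105 were absent, and 57.8% over the whole list.

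H3K27ac peaks absent from both Empty replicates numbered 11 of 83 in DBDmut (33.1% over its list), 11 of 95 in CBR (20.4%), 9 of 71 in delIDR1 (31.2%) and 4 of 75 in DDX4 (15.4%). The mutants also shared part of the 19 WT peaks. DBDmut had 8 of the 19, delIDR1 6, CBR 3 and DDX4 3, where the shares over all such peaks were 41.2%, 33.1%, 7.7% and 7.5%. The peaks found with all 5 forms of ARID1A and in neither Empty replicate were 1 upstream of FOSB, at the gained BAF site described above, and 1 upstream of ATF3 at chr1:212686305-212686806, 51.99 kb from the start. At the ATF3 peak WT had a fold of 7.6 and 41 fragments, and a WT SMARCC1 peak overlapped it. Another ATF3 peak, 3.54 kb upstream at chr1:212734828-212735291, had a fold of 10.4 in WT and was also listed in DBDmut and delIDR1. The JUN peak 28.51 kb downstream at chr1:59220991-59221639, with 33 fragments in WT, was shared with DBDmut alone.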

How the data were processed

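The authors deposited 1 narrowPeak list for each library, with no list of pooled replicates. The build hg19 and the tool bcl2fastq are named in the submitters' processing notes, and neither the aligner nor the peak caller is given in the sources used here. In the deposited lists the authors gave each peak a fold, a ratio of summit pileup to local background, a −log10 p-value and −log10 q-value, and a score made from the q-value. They served to describe, rank and filter peaks inside a single list.

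Other sequences than chromosomes 1 to 22 and X were left out. Pileup and background were recovered from fold and p-value, taken as a Poisson tail, with a misfit below 0.001 (−log10 p) in 99.68% or more of the peaks of a list, and the lowest background over the shortest peak length gave fragments per kb. Total fragment numbers are unknown, and pileups carry counting error only, since PCR copies are not independent. All 8 genes were named, with every promoter peak, every gained BAF site, up to 2 constitutive sites per gene of smallest summed rank, and every BAF site of a mutant that WT and Empty lacked. The members and lists were chosen with earlier results of these data known. Start sites are those of the gene list in hg19, and the strand of each gene came from the RefSeq table of GRCh38.p14 (of FOSL1 from general knowledge). Peak numbers were compared by exact permutation tests over libraries, and code was tested on simulated data. No hg19 annotation or genome was used, so other AP-1 family genes and the sequence under peaks were not analysed here. Python 3.11.15 was used with numpy 2.4.6, scipy 1.17.1, pandas 2.3.3 and matplotlib 3.10.9.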

Additional observations from a re-analysis of the deposited data

Results flagged for a closer look

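HA, the tag of the introduced protein, was profiled in DDX4 cells alone and enters no comparison above; it is given here because a signal was present near the AP-1 genes. Its list held 21 peaks within 100 kb of the 8 start sites: 7 around JUND, 4 around JUNB, 3 each around FOS and FOSB, and 1 each around JUN, FOSL1, FOSL2 and ATF3. Of these, 20 overlapped a DDX4 SMARCA4 or SMARCC1 peak and 19 a SMARCA4 or SMARCC1 peak of an Empty replicate, shares that were 66.9% and 73.5% over all 5390 HA peaks. An HA peak overlapped 0 of the 6 gained and 12 of the 15 constitutive WT BAF sites, where the shares over the genome were 3.24% and 67.8%. These overlaps were read at the WT SMARCA4 peaks; an HA peak did lie in the wider region of the gained JUND site. The 1 HA peak of JUN, FOSL2 and ATF3 each lay at the constitutive site of that gene. No HA library of Empty cells was analysed here, so the background of the antibody is unknown.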

How the results depend on the processing

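The difference in SMARCA4 peak number (2.9) changed sign with lists shortened to the same length (−1.9), with windows of 50 kb (−1.0) and as percent of the list (−0.112 percentage points), and ran from −0.6 (without Empty replicate 1) to 6.4 when libraries were left out in turn. That of SMARCC1 (−0.2) changed sign at a −log10 q of at least 5 (1.5), with shortened lists (0.5) and, a setting chosen after seeing the data, without the 3 genes of chromosome 19 (1.3), and ran from −4.0 (without WT) to 3.75 (without delIDR1) when libraries were left out; leaving out DDX4 (2.0) or Empty replicate 2 (0.8) also turned it. That of H3K27ac (−42.7) all but vanished as percent of the list (−0.000135 percentage points, exact permutation p = 1.0), ran from −79.2 to −6.2 without Empty replicate 1 or 2, and with shortened lists was −11.6 with an unadjusted exact permutation p of 0.0476; over all settings its p ran from 0.0476 to 1.0.

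Gained BAF sites numbered 2 with shortened lists (ATF3 at 1.99 kb and JUND), 3 with windows of 50 kb, and 6 to 8 without either Empty replicate. At a −log10 q of at least 5, 4 of the 6 sites were still gained, without those of JUN and ATF3 at 71.45 kb. DBDmut kept 1 at that q, 0 with shortened lists, 1 with 50 kb and 2 to 3 without either Empty replicate, and DDX4 kept 0 to 1. Gained H3K27ac peaks numbered 11 with 50 kb and 23 to 38 without Empty replicate 1 or 2. The causes were not tested. Of 42 promoter counts, 40 stayed within 1.5 times, and with 2.5 kb around the start H3K27ac was listed at 7 genes in delIDR1 and 8 in Empty replicate 1. That width also added the subunit peaks of JUNB, FOSB and ATF3 described above.

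No paired analysis was possible because replicate numbers exist for Empty alone. Each ARID1A form was 1 library, depth differed up to several times between libraries, and a missing peak at few fragments cannot be told apart from low depth.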
